A study of Mus musculus with 8 samples.

Results

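The genes of neurosteroid synthesis around Cyp11a1 were examined in nuclear RNA of sorted cortical GABAergic neurons from juvenile hypothyroid mice. The 10 genes were taken by symbol from the 55341 gene symbols of the count files: Star, Stard3 and Tspo for cholesterol import into mitochondria, Cyp11a1 with its redox partners Fdx1 and Fdxr for side-chain cleavage, and Cyp17a1, Srd5a1, Akr1c14 and Cyp7b1 for later steps. All 10 symbols had a row. The set was chosen by a value already known, the higher count of Cyp11a1 in the treated group, and was filled up by function. Differences between the groups are therefore given for these genes as a description and not as a test. Of the 10 genes, 8 passed the filter on low counts. Cyp17a1 did not, with at most 15 counts in a library, and Srd5a1 was listed at 0 in all 8 libraries.

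Both groups were hypothyroid, because their mothers had been given propylthiouracil (PTU), which blocks the making of thyroid hormone, during gestation. The PTU group (mice 9 to 12, n = 4) had no further treatment in the labels. The PTU+TH group (mice 13 to 16, n = 4) had in addition received thyroid hormone (TH) by intraperitoneal injection 24 h before the brain was collected. All mice carried a Cre-dependent transgene that puts a fluorescent protein into the nuclei of GABAergic neurons, the inhibitory neurons of the cortex, and 1 library was made per mouse. The labels give no age in days, sex, litter or Cre driver, and the comparison is between 2 hypothyroid groups.

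Neurosteroids are steroids made within the nervous system. Their synthesis starts when cholesterol is carried to the inner mitochondrial membrane, where Cyp11a1, the side-chain cleavage enzyme, turns it into pregnenolone with electrons that the reductase Fdxr takes from NADPH and the ferredoxin Fdx1 carries over. Pregnenolone is then made into progesterone, and reduction of the A ring by Srd5a1 and Akr1c14 yields allopregnanolone, which enhances the action of GABA at its ionotropic receptors.

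Cyp11a1 (chromosome 9, 58006411 to 58027023, plus strand, GRCm38) has starts in 2 places in RefSeq, at 57998024 and at 58014952. The bases before them are shown because Cyp11a1 differed most between the groups, and those of Fdxr and Fdx1 because they are partners in one reaction. The sequences are from RefSeq on GRCm38.p6, in lower case from 5′ to 3′ on the strand of the gene, and capitals mark AGGTCA, the half-site of many nuclear receptors including those for thyroid hormone, searched on both strands. For the upstream start of Cyp11a1 the 250 bases at chr9:57997774-57998023 are given. For the downstream start only the 26 bases around the match at chr9:58014914-58014939 are given, since the whole window lies in a GENCODE exon. Fdxr is represented by 169 bases at chr11:115277051-115277219 (minus strand), up to the first exon base of GENCODE, and Fdx1 by 250 bases at chr9:51963603-51963852 (minus strand).
Cyp11a1 upstream start: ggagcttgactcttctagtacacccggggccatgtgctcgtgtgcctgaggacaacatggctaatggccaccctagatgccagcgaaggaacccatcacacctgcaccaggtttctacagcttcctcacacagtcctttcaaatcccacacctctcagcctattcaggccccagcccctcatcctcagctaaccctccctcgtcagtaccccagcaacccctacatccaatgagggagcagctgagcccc
Cyp11a1 downstream start: ggaaggggggAGGTCAccgctccatc
Fdxr: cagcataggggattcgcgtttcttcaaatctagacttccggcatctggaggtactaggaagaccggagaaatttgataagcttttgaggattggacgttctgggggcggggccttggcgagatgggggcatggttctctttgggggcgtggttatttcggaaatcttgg
Fdx1: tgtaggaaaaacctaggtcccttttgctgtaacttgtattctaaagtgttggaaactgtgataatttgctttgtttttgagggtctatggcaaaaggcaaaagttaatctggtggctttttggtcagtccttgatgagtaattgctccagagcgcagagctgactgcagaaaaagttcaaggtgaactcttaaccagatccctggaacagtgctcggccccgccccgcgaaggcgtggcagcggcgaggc

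RefSeq promoter entries were found for 6 of the 10 genes, in 7 windows of 250 bases before a start. AGGTCA on either strand occurred in 1 of them, the window of the downstream Cyp11a1 start, 28 bases before that start (position -28) and on the strand of the gene. Over all 32851 windows of the same length, 14% held AGGTCA. The longer form CAAGGTCA, the site of the steroidogenic factor Nr5a1, was in none of the 7 windows and in 1.33% of all windows. The direct repeat of AGGTCA with a spacing of 4 bases, the classical element of thyroid hormone receptors, was in none of the 7 and in 0.0152% of all. A match is a description of these letters and no site shown to be bound.

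Library totals ranged from 21.8 M to 29.1 M counts. The GABAergic markers Gad1, Gad2, Slc32a1 and Dlx6os1 together stood between 1041 and 1227 CPM (counts scaled to a common library size by the trimmed mean of M values, or TMM) in all 8 libraries. Of 34 tested markers of GABAergic neurons and 7 other cell types, 0 were called between the groups by edgeR, DESeq2 or limma voom. Over all tested genes edgeR called 2.12%, so 0 of 34 is near that share and no measure of equal composition. Beside 12.8% of all tested genes, 3 markers had an unadjusted edgeR p under 0.05. These were the microglial gene C1qa (means of 0.786 CPM with PTU alone and 1.71 with TH added) and the oligodendrocyte gene Mobp (2.59 and 6.48 CPM), whose groups overlapped, and the GABAergic gene Dlx6os1 (237 and 193 CPM), which was lower in every PTU+TH mouse than in any PTU mouse. Their part in the results was not tested. The defining markers Dlx1, Gfap and P2ry12 were listed at 0, and each lies wholly inside another gene. The library of PTU mouse 10 stood apart in its endothelial genes, which summed to 148 CPM against 32.9 to 52.3 in the other PTU libraries and 33.0 to 107 in PTU+TH, and in the pericyte genes Pdgfrb and Rgs5, at 67.7 CPM against 13.6 to 24.0 and 11.9 to 53.4. That of PTU+TH mouse 15 had the highest sum in 5 of the 8 marker lists. Its oligodendrocyte genes summed to 173 CPM against 84.0 to 112 in the other 7 libraries, astrocyte genes to 366 against 125 to 259, excitatory neuron genes to 115 against 35.5 to 100.4, precursor genes to 23.2 against 5.90 to 17.8 and microglial genes to 77.1 against 49.9 to 69.4 CPM. Counts of Y-linked genes were found in 6 libraries and were 0 in those of PTU+TH mice 15 and 16.

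Cyp11a1 was the gene of the set with the widest separation between the groups. Counts of 174, 168, 79 and 112 were found in PTU mice 9 to 12 and 457, 523, 463 and 435 in PTU+TH mice 13 to 16. After scaling these were 6.34, 6.32, 3.91 and 4.90 CPM in the PTU mice and 19.3, 18.0, 21.0 and 20.7 CPM in PTU+TH. Every PTU+TH mouse lay above every PTU mouse, with mouse 11 lowest and mouse 15 highest. The means were 5.37 ± 1.18 and 19.8 ± 1.40 CPM (SD, n = 4 each), a 3.66-fold difference (log2 fold change 1.87, SE 0.17, interval at 95% from 1.51 to 2.23). Without the library of PTU+TH mouse 15 the log2 fold change was 1.84, and without that of PTU mouse 10 it was 1.96. In bulk nuclei, a change in the share of cells that express a gene and a change in RNA per cell cannot be told apart. In PTU+TH, the mice with Y-linked counts (13 and 14) had 19.3 and 18.0 CPM and those without (15 and 16) had 21.0 and 20.7 CPM.

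**Figure D1:**
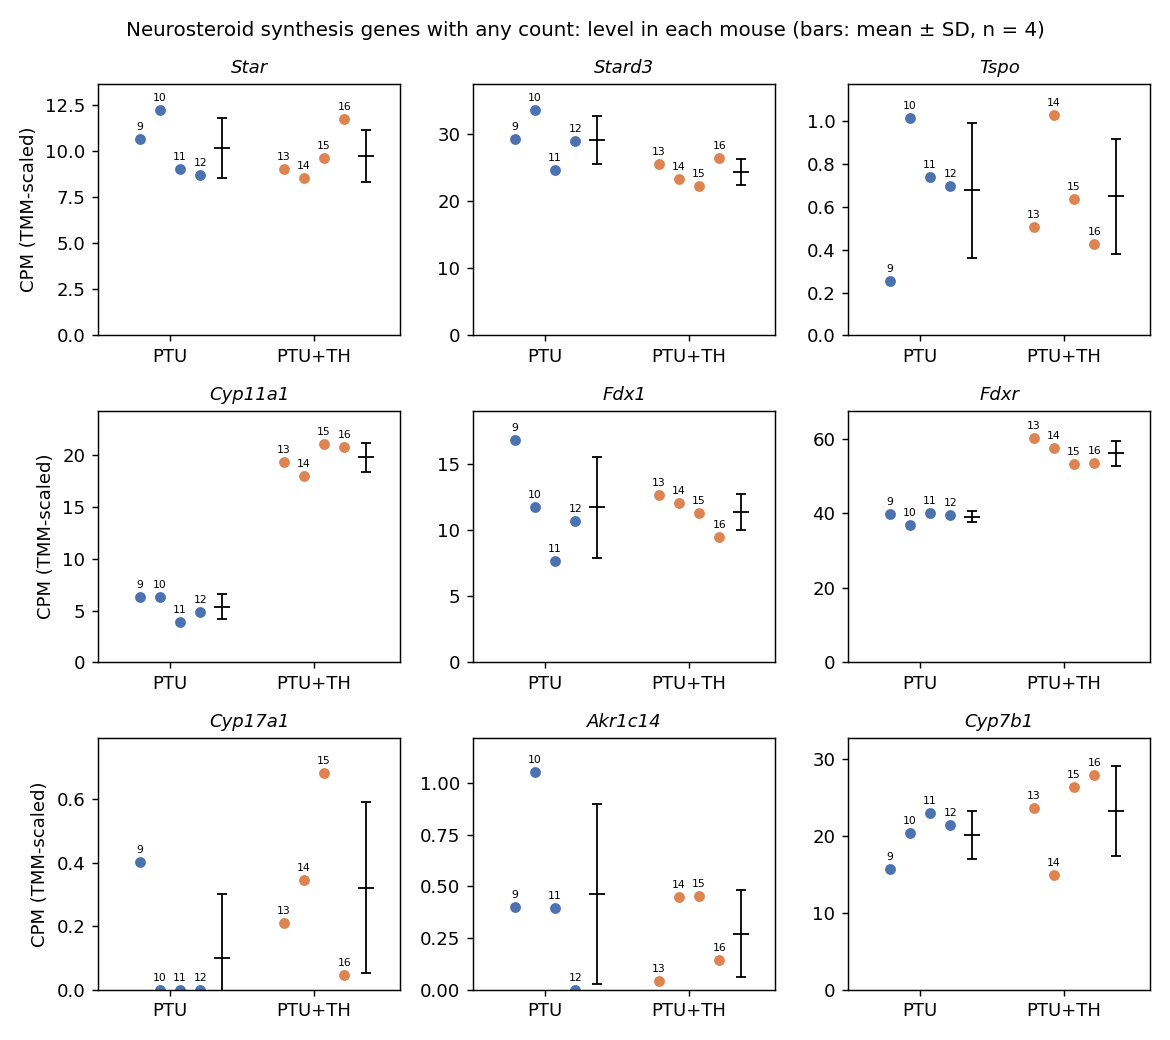
Levels in CPM on the vertical axes, by group, for the 9 genes with any count, with 1 point per mouse labelled by mouse number and the mean ± SD (n = 4) beside each group. The groups are separate for Cyp11a1 and Fdxr and overlap for the other 7 genes.

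Fdxr, the reductase that feeds electrons into the side-chain cleavage reaction, was the other gene of the set that separated the groups. Its level was 39.8, 37.0, 40.1 and 39.4 CPM in the PTU mice and 60.2, 57.7, 53.1 and 53.5 CPM in PTU+TH. The PTU mice lay close together, and the lowest PTU+TH mouse was well above all of them. The means of 39.1 ± 1.43 and 56.1 ± 3.41 CPM (SD, n = 4 each) differed 1.44-fold (log2 fold change 0.52, SE 0.09, interval from 0.34 to 0.71). Within PTU+TH both mice with Y-linked counts were higher than both without, which is the opposite order to that of Cyp11a1. Fdxr shares no base with another gene model (chromosome 11, 115268024 to 115277050, minus strand).

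Fdx1, the ferredoxin that carries the electrons from Fdxr to Cyp11a1, showed no such separation. Its values were 16.8, 11.8, 7.67 and 10.7 CPM in the PTU mice and 12.7, 12.0, 11.3 and 9.47 CPM in PTU+TH. All PTU+TH mice lay within the range of the PTU mice, whose highest value, in mouse 9, was more than double the lowest, in mouse 11. The log2 fold change was -0.05 (SE 0.21), with an interval from -0.50 to 0.40 that overlaps that of Fdxr (from 0.34 to 0.71). The difference between the 2 genes was not tested. Without PTU mouse 9 the value was 0.18. The second mitochondrial ferredoxin gene, Fdx1l, lies wholly inside another gene and was listed at 0, so its level cannot be read from these counts.

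The genes of cholesterol import did not separate the groups. Star, the acute regulatory protein that delivers cholesterol to the inner mitochondrial membrane, stood at 10.6, 12.2, 9.06 and 8.70 CPM in the PTU mice and 9.02, 8.56, 9.63 and 11.8 CPM in PTU+TH, with a log2 fold change of -0.06 (SE 0.16, interval from -0.42 to 0.29). The groups overlapped over most of their range. Stard3, a late endosomal relative of Star that moves cholesterol between membranes, stood at 29.3, 33.5, 24.6 and 29.0 CPM in the PTU mice and 25.5, 23.3, 22.2 and 26.4 CPM in PTU+TH. Its log2 fold change was -0.26 (SE 0.12), with an interval from -0.51 to -0.01 for the single gene, and the gene was not called over all genes. PTU mouse 11 lay among the PTU+TH mice.

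Tspo, the translocator protein of the outer mitochondrial membrane, which is prominent in microglia and endothelium, was near the floor of the libraries with 7 to 27 counts in PTU and 9 to 30 in PTU+TH. This is 0.68 ± 0.32 and 0.65 ± 0.27 CPM (SD, n = 4 each). The log2 fold change of -0.04 has an interval from -1.07 to 0.99, which reaches nearly a doubling upwards and just past a halving downwards. Star, Stard3, Tspo and Akr1c14, 4 of the 9 genes with any count, had their highest PTU value in mouse 10, the library with the highest endothelial and pericyte sums. Without that mouse their log2 fold changes were 0.04, -0.18, 0.24 and 0.05. The part of endothelial RNA in these levels was not tested.

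The genes of the later steps were mostly too low or too hidden to compare. Srd5a1, the alpha-reductase that makes the precursor of allopregnanolone, occupies 37994 bases on the minus strand of chromosome 13 (69573449 to 69611442), all of them inside Nsun2 on the plus strand. Its 0 counts in 8 libraries are therefore not a measure of its expression. Among 767 protein-coding genes that lie in an intron of another gene without touching its exons, 766 (99.9%) were also at 0 in all libraries, against 21.5% of 11728 coding genes with a body free of any other gene. The level of Nsun2, an RNA methyltransferase, was 57.0 ± 3.06 CPM without and 57.7 ± 4.23 CPM with TH (SD, n = 4 each).

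Akr1c14, the hydroxysteroid dehydrogenase that completes allopregnanolone, gave 11, 28, 8 and 0 counts in the PTU mice against 1, 13, 10 and 3 in the PTU+TH mice. The values overlapped, and the interval of the log2 fold change ran from -2.59 to 1.08. Akr1c14 belongs to a cluster of similar genes on chromosome 13, so some of its reads may be shared or lost among them. Cyp17a1, the hydroxylase and lyase on the way to androgens, gave 11, 0, 0 and 0 counts in the PTU mice against 5, 10, 15 and 1 in the PTU+TH mice. It did not pass the filter and has no fold change here.

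Cyp7b1, the hydroxylase of oxysterols and of neurosteroids such as dehydroepiandrosterone, was well measured with 431 to 588 counts per library. It stood at 15.7, 20.4, 23.0 and 21.4 CPM in the PTU mice and 23.7, 14.9, 26.4 and 28.0 CPM in PTU+TH. Both the lowest and the highest value were in PTU+TH, in mice 14 and 16. The log2 fold change was 0.21 (SE 0.19, interval from -0.19 to 0.61), and it was -0.06 in the 6 libraries with Y-linked counts.

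Over all 17355 genes tested with edgeR, those with an adjusted p below 0.05 numbered 368 (2.12%). The level was higher with TH in 258 of them (1.49% of the genes tested) and lower in 110 (0.634%). Of the 8 tested neurosteroid synthesis genes, 2 were called higher, Cyp11a1 and Fdxr, and 0 lower, with edgeR, DESeq2 and limma voom alike. At an unadjusted p under 0.05 there were 2 higher and 1 lower, the last being Stard3, where 6.59% of all tested genes were higher and 6.17% lower at that threshold. In Cyp11a1 and Fdxr, every PTU+TH mouse was above every PTU mouse, as in 4.68% of all tested genes, and in 0 of the 8 was every PTU+TH mouse below every PTU mouse, as in 4.03%. Because the genes were chosen with this comparison in view, nothing is read from these counts. Their median log2 fold change was -0.04, against -0.01 over all tested genes, with 3 positive and 5 negative values. Cyp11a1 and Fdxr were called under every alternative tried, with log2 fold changes from 1.75 to 1.96 and from 0.49 to 0.59. The largest edgeR adjusted p was 0.00899 for Cyp11a1 and 0.0486 for Fdxr, both in the 6 libraries with Y-linked counts.

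Levels of the genes were compared per kilobase of gene body, since the counts behaved as reads over whole gene bodies. Fdxr was the highest of the set at 5.27 ± 1.04 CPM per kb (SD, n = 8), above 90.8% of all tested genes. Stard3 (1.18 ± 0.16 CPM per kb) and Star (1.05 ± 0.15 CPM per kb) followed, with overlapping ranges. Genes were not compared in pairs within each library. Fdx1 was at 0.57 ± 0.13 CPM per kb. Cyp11a1 was below Fdx1 in PTU, at 0.26 ± 0.06 against 0.58 ± 0.19 CPM per kb, and above it in PTU+TH, at 0.96 ± 0.07 against 0.56 ± 0.07 CPM per kb (SD, n = 4 each). In PTU+TH the range of Cyp11a1 overlapped that of Star, which was at 1.03 ± 0.15 CPM per kb of gene body.

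Cyp7b1 (0.13 ± 0.03 CPM per kb of gene body), Tspo (0.06 ± 0.03), Cyp17a1 (0.04 ± 0.04) and Akr1c14 (0.01 ± 0.01) were the lowest of the genes with any count (SD, n = 8). The order depends on the length used. Per kilobase of summed exons, Cyp7b1, whose gene body of 171389 bases is 1.26% exon, was second to Fdxr with 10.0 ± 2.15 against 17.0 ± 3.36 CPM per kb. Stard3 was well above Star there, at 7.52 ± 1.04 against 2.42 ± 0.35 CPM per kb of exons (SD, n = 8). On that scale Star was above Cyp11a1 in PTU, at 2.47 ± 0.39 against 1.12 ± 0.25 CPM per kb of exons, and below it in PTU+TH, at 2.37 ± 0.34 against 4.11 ± 0.29 (SD, n = 4 each).

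**Figure D2:**
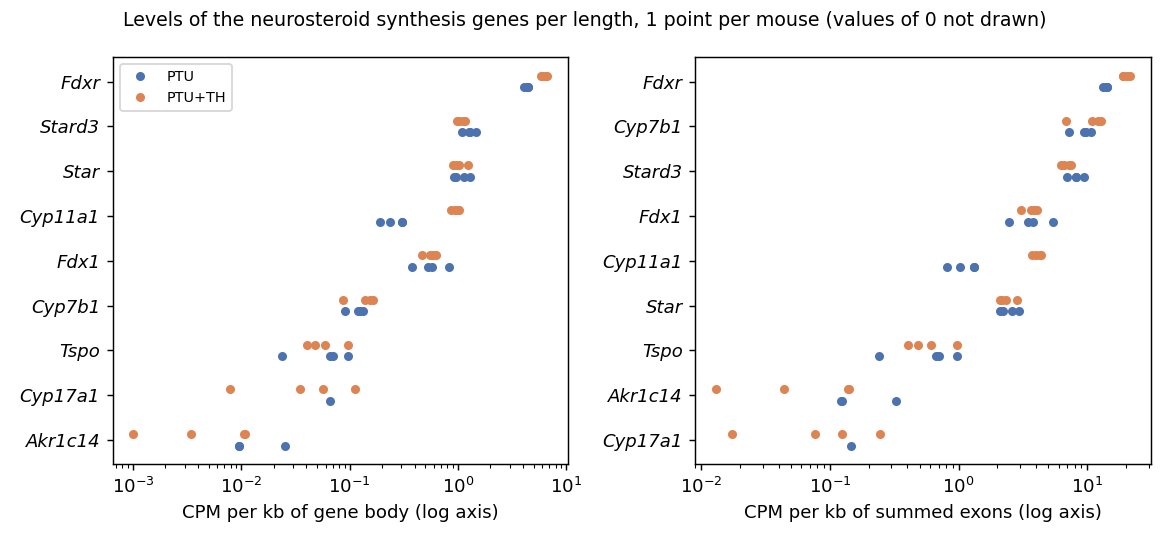
Levels of 9 genes on a log axis in CPM per kb of gene body (left) and of summed exons (right), with 1 point per mouse and the groups in different colours. Fdxr is highest on both scales, and Cyp11a1 is the gene whose PTU+TH points shift farthest from its PTU points among genes over 0.1 CPM per kb of gene body.

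The gene models at Cyp11a1 bear on what its counts hold. In GENCODE M21 the noncoding model Gm17322 (chromosome 9, 57998041 to 58007451, plus strand) covers the first part of what RefSeq gives as Cyp11a1 (57998024 to 58027031) and starts 17 bases after the upstream RefSeq start. It shares 1041 bases with the GENCODE model of Cyp11a1, on the same strand. Gm17322, picked after its values were seen, stood at 3.53, 2.45, 0.99 and 2.45 CPM in the PTU mice and 6.41, 6.60, 7.40 and 8.28 CPM in PTU+TH. The groups did not overlap, and it rose by a log2 fold change of 1.59 (SE 0.29, edgeR adjusted p = 0.012). The edgeR call was lost without PTU+TH mouse 16 (adjusted p = 0.0502, log2 fold change 1.52), in the 6 libraries with Y-linked counts (0.225, log2 fold change 1.45) and with the Y-linked covariate (0.120, log2 fold change 1.45). With the counts of Gm17322 added, the log2 fold change of Cyp11a1 was 1.79. These counts do not tell transcripts of the 2 models apart.

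The nearest coding gene before Cyp11a1 is Sema7a, a membrane-anchored semaphorin, 43545 bases away on the same strand. Sema7a stood at 8.05, 8.84, 7.67 and 7.52 CPM in the PTU mice and 20.5, 14.8, 14.8 and 11.8 CPM in PTU+TH, and rose with an SE of 0.17 around a log2 fold change of 0.94 (edgeR adjusted p = 0.0106). It was higher in all 4 PTU+TH mice and was called under all 16 alternatives (adjusted p up to 0.0433). On the other side, Ccdc33 lies on the opposite strand, with its 3′ end 1653 bases beyond the end of Cyp11a1. It had 4 to 18 counts per library and did not pass the filter, and its groups overlapped.

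**Figure D3:**
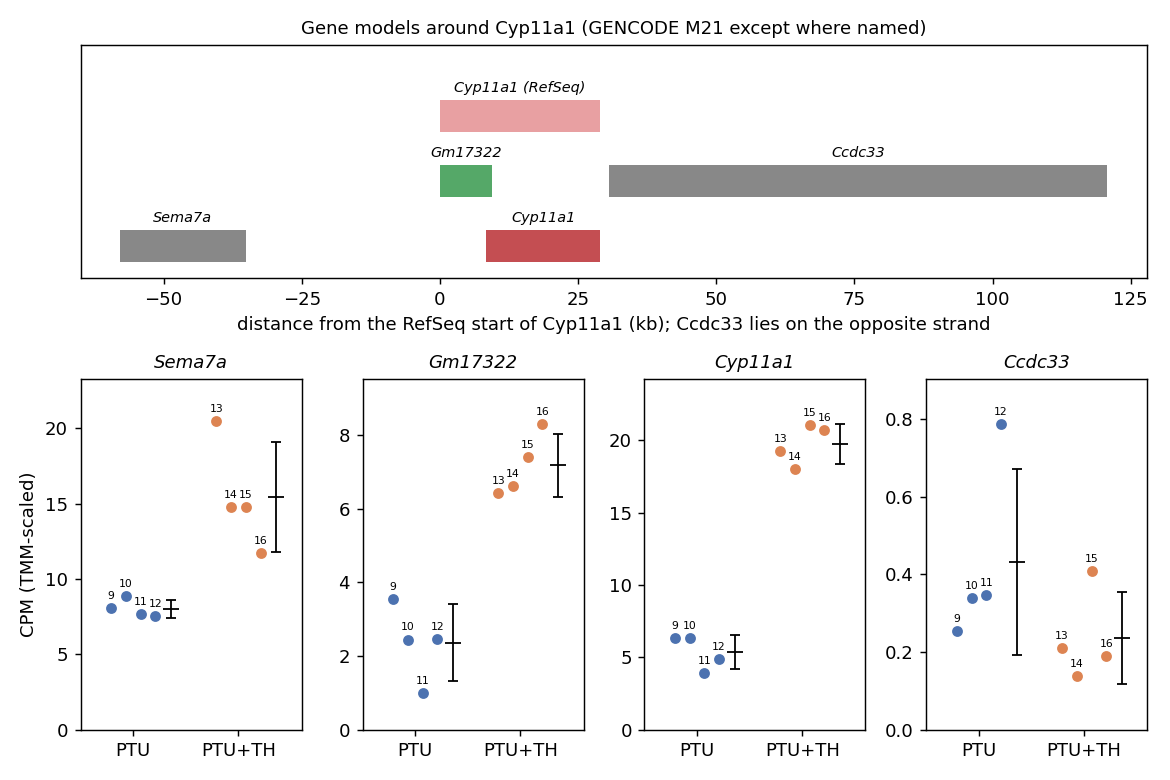
Top, gene models by distance in kb from the upstream RefSeq start of Cyp11a1. Bottom, levels in CPM of 4 of these genes by group, with 1 point per mouse and the mean ± SD (n = 4): Sema7a, Gm17322 and Cyp11a1 are higher in every PTU+TH mouse than in any PTU mouse, and Ccdc33 overlaps below 1 CPM.

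The 5 coding genes whose log2 CPM followed that of Cyp11a1 most closely over the 8 libraries, among 13414 compared, were Rell1, Ptges, Nr3c1, Gabrd and Tet1, with Pearson correlations of 0.993, 0.993, 0.992, 0.988 and 0.988. The step between the groups is part of these correlations, and the libraries share their scaling, whose part was not tested. With the group means removed, the values were 0.884, 0.853, 0.831, 0.732 and 0.733, and 0 of the 5 were among the 5 closest. Gabrd encodes the delta subunit of GABA-A receptors, which are sensitive to allopregnanolone, and had a level of 37.1 ± 5.22 CPM without and 97.9 ± 6.63 CPM with TH (SD, n = 4 each). Nr3c1, the glucocorticoid receptor, stood at 45.0 ± 4.66 and 82.5 ± 4.16 CPM, and Ptges, a prostaglandin E synthase, at 7.03 ± 0.66 and 13.2 ± 0.91 CPM (SD, n = 4 each).

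Other genes of steroid and sterol handling were compared from 6 lists, with 76 genes in all, of which 73 had a row and 51 were tested. Of these, edgeR called 1 higher and 0 lower, DESeq2 the same numbers and limma voom 2 higher and 0 lower, where edgeR called 2.12% of all tested genes in either direction. At an unadjusted edgeR p under 0.05 there were 4 higher and 4 lower, 8 of 51, where 12.8% of all tested genes passed that threshold. In 7 of the 51 the groups did not overlap, against 8.71% of all tested genes. The median log2 fold change was near 0 (-0.0041), with 25 positive and 26 negative values.

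The called gene was Stard5, a carrier of cholesterol and bile acids of the same lipid-binding family as Star and Stard3. Only 39.8% of its body is free of other gene models (Gm45838 and Il16 overlap it), so its counts may miss part of its reads. Stard5 stood at 11.7, 14.3, 15.0 and 14.7 CPM in the PTU mice and 19.7, 24.2, 23.2 and 25.5 CPM in PTU+TH, with every PTU+TH mouse above every PTU mouse. It rose by a log2 fold change of 0.73 with an SE of 0.13 (edgeR adjusted p = 0.00851) and was called under 14 of 16 alternatives. The call was lost in the 6 libraries with Y-linked counts (adjusted p = 0.18) and with the Y-linked covariate (0.0948), at log2 fold changes of 0.66 each. In the same list of cholesterol uptake, storage and transfer, 1 of 13 tested genes was called, beside 2.12% of all tested genes. An unadjusted edgeR p under 0.05 was found for 2 of the 13, beside 12.8% of all tested genes.

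Among 11 tested steroid enzymes that act after side-chain cleavage, 0 were called by edgeR, beside 2.12% of all tested genes, and 1 had an unadjusted p under 0.05, beside 12.8%. Their median log2 fold change was -0.04. The largest value belonged to Cyp11b1, the mitochondrial steroid hydroxylase that takes its electrons from Fdx1 and Fdxr as Cyp11a1 does. It gave 0, 10, 1 and 0 counts in the PTU mice against 14, 20, 22 and 16 in the PTU+TH mice. The groups did not overlap, but counts were few, and the gene passed the filter on low counts only through the PTU+TH mice. Its fold changes and calls are therefore given as a description. The log2 fold change was 2.71 with an SE of 0.80 (edgeR adjusted p = 0.119), and the single high PTU value was that of mouse 10. Without mouse 10, which left 0, 1 and 0 counts in PTU, it was called (edgeR adjusted p = 0.0102, log2 fold change 5.29). It was also called with limma voom (adjusted p = 0.0211), and under the other alternatives that gave an adjusted p it was not (up to 0.57). Its neighbour and relative Cyp11b2 was listed at 0. Hsd3b6, of the family that turns pregnenolone into progesterone, was next in size (log2 fold change -0.34, edgeR adjusted p = 0.707), and its relative Hsd3b1 was measured at 1.36 ± 0.85 and 1.18 ± 0.32 CPM (SD, n = 4 each).

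Of 10 partners of mitochondrial cholesterol import, 0 were called by edgeR (against 2.12% of all tested genes), DESeq2 or limma voom, and Lonp1 and Vdac2 (2 of 10) had an unadjusted edgeR p under 0.05, beside 12.8% of all tested genes. Lonp1, the mitochondrial protease that degrades Star, had a log2 fold change of -0.33 (SE 0.11, edgeR adjusted p = 0.196) with no overlap between the groups. Slc25a4, an adenine nucleotide carrier, had one of 0.30 (edgeR adjusted p = 0.629), and was called only without PTU mouse 9. In the list of electron transfer to P450 enzymes 0 of 4 were called by any of the 3 tools and 0 had an unadjusted p under 0.05, with Cyb5r3 at -0.30 and Por, the reductase of the microsomal enzymes, at 0.05 on the log2 scale (edgeR adjusted p = 0.745 and 0.917).

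Of 7 tested oxysterol and other sterol P450 genes 0 were called by any of these tools, and Ch25h (1 of 7) had an unadjusted p under 0.05, as had 12.8% of all tested genes. The largest values were those of Cyp27a1, at 0.96, and Cyp39a1, at -0.53 on the log2 scale (edgeR adjusted p = 0.444 and 0.54). The brain cholesterol hydroxylase Cyp46a1 was abundant, at 349 ± 25.9 and 363 ± 28.0 CPM (SD, n = 4 each), with a log2 fold change of 0.06. Among 6 tested regulators of steroidogenic genes 0 were likewise called, and 2 had an unadjusted p under 0.05, beside the same 12.8%. Nr4a1 was at -0.27 and Creb1 at 0.26 on the log2 scale, both without overlap between the groups (edgeR adjusted p = 0.244 and 0.169). Nr5a1, the steroidogenic factor that drives Cyp11a1 in adrenal and gonad, was listed at 0 in all 8 libraries, and 91.5% of its body is free of other genes.

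**Figure D4:**
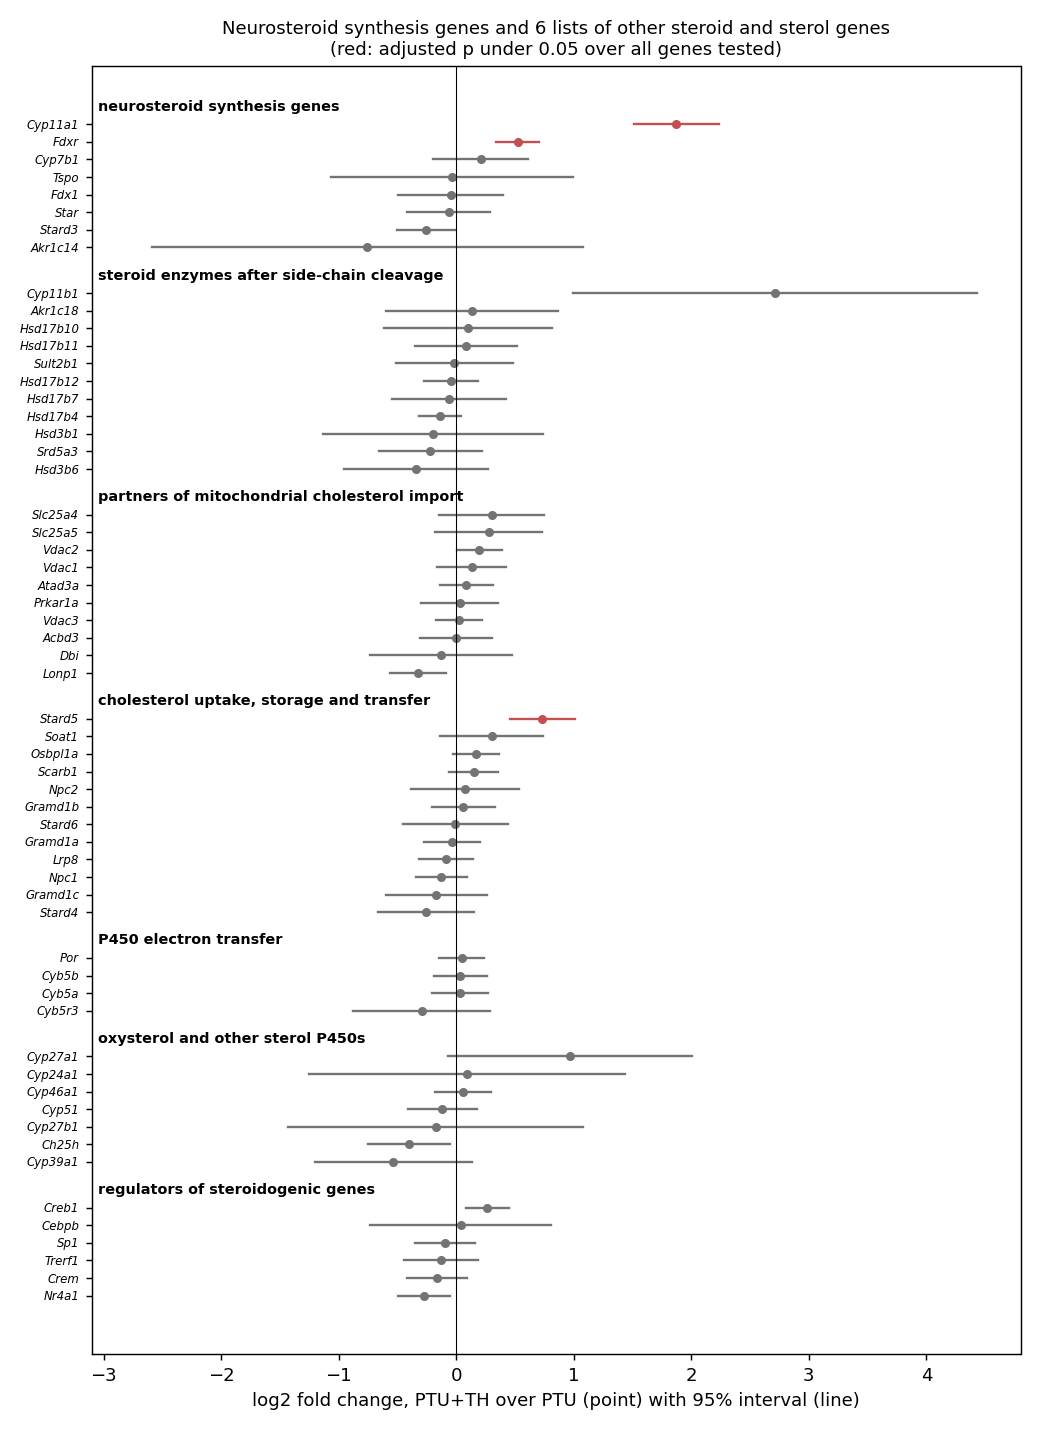
Log2 fold changes, PTU+TH over PTU, as points with intervals at 95% as lines, for the 8 tested neurosteroid synthesis genes and all but 1 of the 51 tested genes of 6 other lists, with genes called over all genes in red. Cyp11a1, Fdxr and Stard5 are called, and the wide lines of Tspo, Akr1c14 and Cyp11b1 belong to genes with few counts.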

How the data were processed

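The authors deposited raw counts of reads per gene, 1 file per library. Bowtie2 2.5.3 and the builds mm10 and GRCm38 are named per the submitters' processing notes. The counting program, annotation, use of strand and treatment of introns are not given in the sources used here. All 55341 symbols matched GENCODE M21 (GRCm38), and 108 belong to more than 1 gene identifier. The groups come from the sample titles. Gene models are from GENCODE M21 and promoters from RefSeq (GRCm38.p6).

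Counts were fitted with edgeR 4.0.16 in R 4.3.3 (filterByExpr, TMM scaling, robust quasi-likelihood test with group as the only term), with two-sided p-values adjusted by Benjamini-Hochberg over 17355 genes. Intervals at 95% use the fit's standard error and degrees of freedom and are not adjusted for the number of genes. CPM is computed here from the scaled library sizes. Alternatives used DESeq2 1.42.0, limma 3.58.1 (voom), other scalings, filters and covariates. The fit was tested on simulated counts. The genes and lists were chosen with earlier results of these data known. Named genes are the 10 members, list genes called or among the 2 largest changes of their list, the coding neighbours of Cyp11a1, and the 5 genes closest to it in log2 CPM (prior count 2). A list gene that this rule names is not reported here. Gm17322, Nsun2, Fdx1l, Hsd3b1, Cyp46a1, Nr5a1, Cyp11b2, C1qa, Mobp, Vdac2 and Ch25h were named after their values were seen. Titles number separate mice, so the p-values measure the spread between mice.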

Additional observations from a re-analysis of the deposited data

Results flagged for a closer look

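In 38 sets of 4 libraries, each a gene in 1 group, 2 held a value set apart from the rest. For normally distributed values, chance alone would set apart about 5% of such sets (1.9). That rate does not hold for sets of counts near 0, as both of these are. Cyp17a1 in PTU mouse 9 was at 0.40 CPM (11 counts) against 0 in the remaining 3 PTU mice. Cyp11b1 in PTU mouse 10 was at 0.38 CPM (10 counts) against 0 to 0.05 CPM. Both rest on few counts, and their cause was not tested.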

How the results depend on the processing

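No paired analysis was possible because no mouse number occurs in both groups. Cyp11a1, Fdxr and the count of 2 called neurosteroid synthesis genes kept direction and call under every alternative run. The set was chosen with this comparison in view, so this describes the processing and is no further support. Over all genes, the 368 calls became 721 (441 higher, 280 lower) with DESeq2, 601 at an adjusted p under 0.1, 129 (106 higher, 23 lower) with Y-linked presence as a covariate and 58 (52 higher, 6 lower) in the 6 libraries with Y-linked counts, and fits without 1 library gave 182 (without PTU+TH mouse 15) to 499 (without PTU mouse 9). Counts more than 1.5 times below 368 also came without PTU mouse 12 (233) and PTU+TH mice 13 (238), 14 (227) and 16 (209). The share of higher genes, 70.1%, was 89.7% in those 6 libraries, 82.2% with the covariate and 80.6% without PTU mouse 10. The list genes had 2 calls with limma voom, 0 with the covariate and 0 in the 6 libraries, and from 1 to 2 without 1 library. At an unadjusted edgeR p under 0.05 there were 4 list genes with the covariate and 3 in the 6 libraries. The threshold of 0.1 admits more genes by construction, and for the other shifts the cause was not tested.

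Directions changed only for uncalled genes. Without 1 library, log2 fold changes ran from -0.165 to 0.0424 for Star, -0.363 to 0.243 for Tspo, -0.203 to 0.183 for Fdx1 and -1.16 to 0.0518 for Akr1c14. Tspo was at 0.0792 with limma voom. In the 6 libraries and with the covariate, in this order, Tspo was at 0.196 and 0.196, Fdx1 at 0.0719 and 0.0704 and Cyp7b1 at -0.0615 and -0.0628. Other scalings shifted the median log2 fold change over all genes by -0.021 at the most. Low counts limit Tspo, Akr1c14, Cyp17a1 and Cyp11b1, and overlap with other genes hides Srd5a1. Cyp17a1 did not pass the filter and had no main value to compare the alternatives with, and Srd5a1 had no counts to fit.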
